A study of Mus musculus with 6 samples.

Results

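In vitro induced regulatory T cells (iTreg cells) were compared with natural regulatory T cells (nTreg cells) after stimulation, in 4 RNA-seq libraries out of the 6 of the study. The libraries were chosen by their labels. On each side there was 1 wild-type and 1 knockout library, and genotype was a covariate. The mice were C57BL/6 and 8 weeks old, and all carried Foxp3-Cre. Wild-type mice had intact MondoA alleles (MondoA+/+Foxp3Cre) and knockout mice had floxed alleles (MondoAfl/flFoxp3Cre). MondoA is the protein of the Mlxip gene. The nTreg cells came from spleen and lymph nodes, were sorted for CD4, high CD25 and YFP, and were kept for 48 h on a plate coated with anti-CD3 at 5 μg/ml, with soluble anti-CD28 at 2 μg/ml and IL-2 at 100 U/ml. The iTreg cells grew for 4 days under polarizing conditions from naive CD4 cells that were sorted as YFP negative and CD44 low. The polarizing cocktail is not given in the sources used here, nor whether Foxp3-positive cells were sorted again after culture. Because Foxp3 drives the Cre, the starting cells of the iTreg cultures had not switched on the reporter when they were sorted, and deletion could begin only as Foxp3 came on. Origin, culture time and stimulus all differ between the sides and cannot be told apart.

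Treg cells restrain immune responses and are held in their identity by the transcription factor Foxp3. Natural Treg cells acquire Foxp3 in the thymus, whereas conventional CD4 cells can be induced to express it in culture, classically by antigen receptor stimulation with TGF-beta and IL-2. On activation, natural Treg cells can become effector Treg cells, which carry inhibitory receptors, secrete IL-10 and enter tissues.

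Total expected counts were 9760285 to 10185664 in the 4 libraries, and levels are given below as normalised counts per 1000000 (CPM), with the wild-type value before the knockout value. Every group had 1 library. Separate animals or cultures are not named in the labels, and no group has a spread of its own. The error behind the p-values comes from how the state difference varied between the genotypes, pooled across genes. That spread may be technical, and a real knockout effect on the state difference also counts as error. The targeted gene, Mlxip, was at 148 and 83.2 CPM in stimulated nTreg cells, at 167 and 70.1 CPM in iTreg cells, and at 140 and 106 CPM in the resting nTreg libraries. It was lower in the library labelled knockout of each state, and the floxed exons are not named in the labels. Cd4 was at 462 and 446 CPM in stimulated nTreg cells and at 523 and 466 CPM in iTreg cells, so the labelled CD4 T cell type was seen in all 4 libraries. The log2 difference between iTreg and stimulated nTreg cells followed transcript length in opposite ways in the genotypes, with a Spearman correlation across genes of 0.18 in wild type and -0.30 in knockout.

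Of 12232 genes tested with edgeR's quasi-likelihood test, 2346 passed a Benjamini-Hochberg adjusted p of 0.05, which is 19.2% of the genes. Of these, 1174 were higher in iTreg cells (9.6%) and 1172 were lower (9.58%). The counts of list members below are to be read beside these shares. The median log2 fold of all tested genes was -0.0089. Within each genotype, 740 genes (6.05%) were at least 2-fold apart in the same direction in both, among genes with at least 50 counts in the higher library of each genotype: 358 were higher (2.93%) and 382 were lower (3.12%). All 740 also passed the test, which used the same 4 libraries, so this is no separate support. They made up 69.7% of the 1062 genes that were 2-fold apart in wild type and 49.0% of the 1509 in knockout. The folds of both genotypes, which share no library, had a Pearson correlation of 0.77 and a Spearman correlation of 0.58 over 10142 genes. Genes are not independent replicates, so this is a description. Calls without a library, given below, come from a model of all 6 libraries less that 1, so they change the model as well as the library. In bulk RNA, fewer cells expressing a gene and less RNA per cell cannot be told apart. The share of all genes whose groups do not overlap was not counted, so a lack of overlap in named genes is a description.

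**Figure D1:**
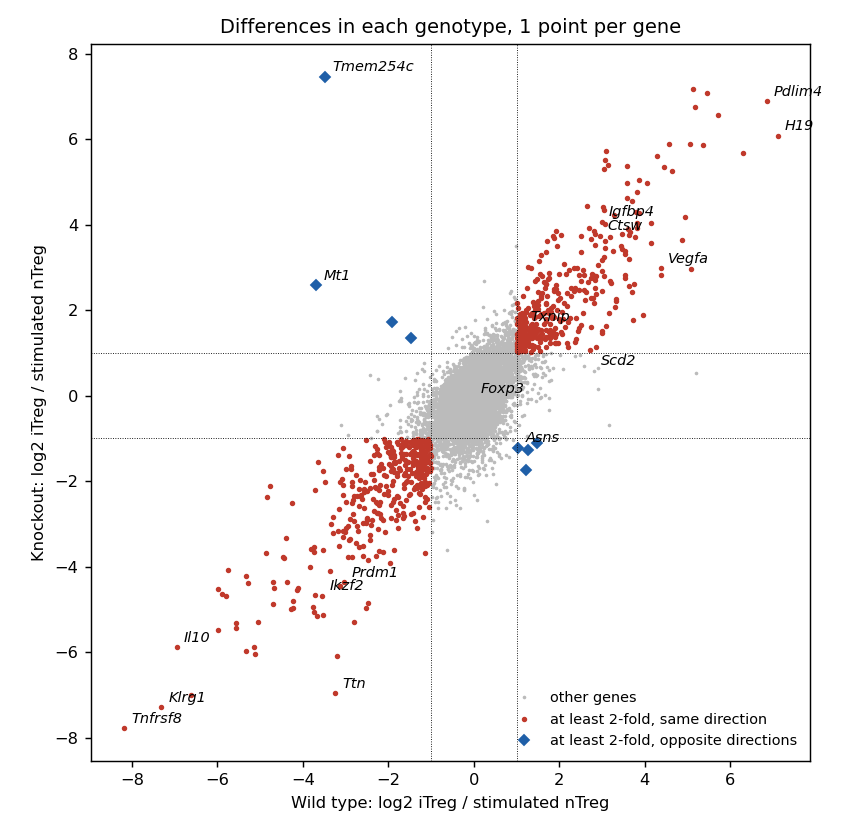
Log2 ratio of normalised CPM (prior count 2) of iTreg over stimulated nTreg cells in wild type (horizontal axis) and knockout (vertical axis), 1 point per gene with at least 50 counts in the higher library of each genotype; dotted lines mark 2-fold. The 740 red points are at least 2-fold apart the same way in both genotypes, Foxp3 sits near the centre, and 8 genes (blue) are 2-fold apart in opposite directions.

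Foxp3 itself differed little between the sides. It was at 493 and 503 CPM in stimulated nTreg cells and at 492 and 478 CPM in iTreg cells. Both iTreg values lay slightly below both stimulated nTreg values, with a log2 fold of -0.04 ± 0.26 (SE, edgeR adjusted p = 0.95). Il2ra, the high-affinity chain of the IL-2 receptor known as CD25, was at 3425 and 3357 CPM against 3152 and 2956 CPM in iTreg cells, a log2 fold of -0.15 ± 0.27 that did not pass (edgeR adjusted p = 0.78). Ikzf4, which encodes Eos, a partner of Foxp3, had 158 and 152 CPM against 120 and 106 CPM, and did not pass either (log2 fold -0.45 ± 0.25, edgeR adjusted p = 0.21), though it passed without the wild-type iTreg library. Nrp1, a surface receptor used as a marker of thymic origin in mouse Treg cells, was at 137 and 105 CPM in stimulated nTreg cells and at 118 and 113 CPM in iTreg cells. Its libraries overlapped, with a log2 fold of -0.05 ± 0.25 (edgeR adjusted p = 0.93).

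Ikzf2, which encodes Helios, the other marker often used for thymic origin, differed by a wide margin. It was at 401 and 343 CPM in stimulated nTreg cells and at 34.1 and 13.2 CPM in iTreg cells. Both iTreg libraries lay far below both nTreg libraries, with a log2 fold of -4.11 ± 0.29 (edgeR adjusted p = 1.5e-42). Of 31 genes for lineage factors and partners of Foxp3, 6 were lower in iTreg cells, 3 were higher and 22 did not pass, with a median log2 fold of -0.07, and 12 were lower without the wild-type iTreg library and 5 higher with the transcript length trend removed. Besides Ikzf2, the lower ones included Prdm1, the effector Treg factor Blimp-1, with 59.8 and 74.96 CPM against 7.14 and 3.45 CPM. They also included Batf (log2 fold -2.31), Gata3 (-2.21) and Nfil3 (-2.44), factors that act in effector and tissue Treg cells. Runx3, a runt factor that can pair with Foxp3, was higher, with 101 and 141 CPM against 221 and 379 CPM (log2 fold 1.28 ± 0.26, edgeR adjusted p = 9.8e-06). With 9.6% of all genes tested higher, the 3 higher members of this list are near the general share.

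Genes of effector and tissue Treg cells had the lowest median of the 44 lists of functions. The lists share members and were chosen with earlier results of these data known, so this rank is a description. Of 22 effector and tissue Treg genes tested, 15 were lower in iTreg cells and the other 7 did not pass. The median log2 fold was -2.33. The median was -2.17 in wild type alone and -2.37 in knockout alone. Klrg1, an inhibitory lectin receptor of terminally differentiated effector cells, had 31.6 and 31.1 CPM in stimulated nTreg cells and no counts in either iTreg library. Against the floor of 3 counts per library it was at least 103-fold lower in wild type and at least 102-fold lower in knockout. Tnfrsf8, which encodes CD30, had 58.2 and 88.3 CPM in stimulated nTreg cells, against 0 counts in wild-type and 2 counts in knockout iTreg cells. In wild type this was at least 190-fold lower. Ccr8, a chemokine receptor of tissue Treg cells, went against the list. It was at 84.7 and 105 CPM in stimulated nTreg cells and at 109 and 152 CPM in iTreg cells, and did not pass (edgeR adjusted p = 0.21).

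Several members of that list are receptors for tissue signals. Il1rl1, the IL-33 receptor ST2, was at 46.5 and 47.3 CPM in stimulated nTreg cells and at 8.98 and 8.74 CPM in iTreg cells. Il1r2, a decoy receptor for IL-1, was at 12.9 and 13.5 CPM against 1.22 CPM and no counts. Both genes were lower in iTreg cells, and their libraries did not overlap, though the call of Il1r2 was lost with DESeq2. Cd44, the hyaluronan receptor of activated and memory T cells, was at 307 and 299 CPM against 76.0 and 59.2 CPM (log2 fold -2.17 ± 0.26, edgeR adjusted p = 5.7e-15). Rora, a nuclear receptor of tissue Treg cells, had a log2 fold of -2.69 ± 0.31.

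**Figure D2:**
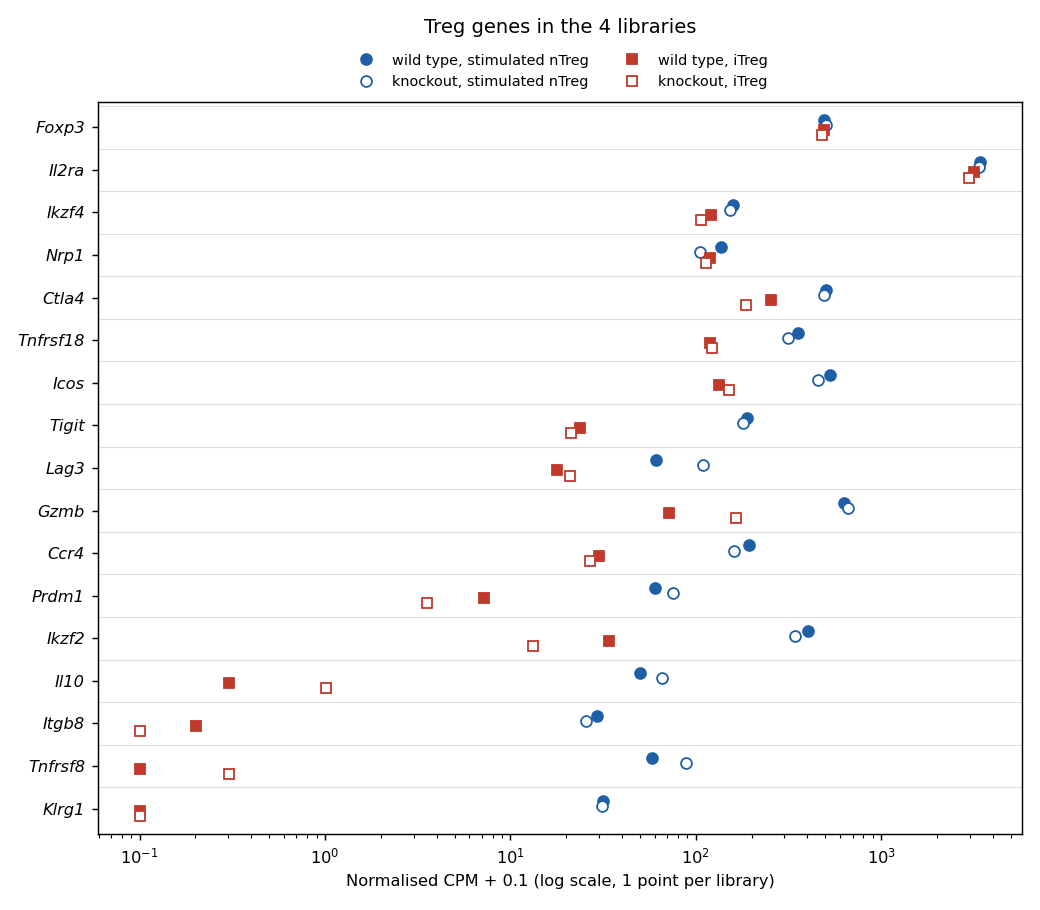
Normalised CPM plus 0.1 (log axis) of 17 Treg genes in each of the 4 libraries: circles are stimulated nTreg, squares iTreg, filled wild type and open knockout. Foxp3, Il2ra, Ikzf4 and Nrp1 lie close together in all 4 libraries, and from Ctla4 down to Klrg1 both iTreg libraries lie below both stimulated nTreg libraries.

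Of 18 genes tested for suppressive mediators, 11 were lower in iTreg cells and 7 did not pass, with a median log2 fold of -1.02. Il10, the anti-inflammatory cytokine, was at 49.8 and 65.7 CPM in stimulated nTreg cells and at 0.20 and 0.91 CPM in iTreg cells. The iTreg libraries held 2 and 9 counts of it, and the log2 fold was -6.70 ± 0.41 (edgeR adjusted p = 1.5e-56). Gzmb, the cytotoxic protease granzyme B, was at 630 and 664 CPM against 71.8 and 165 CPM (log2 fold -2.57 ± 0.28, edgeR adjusted p = 2.1e-18). Granzyme genes resemble each other, so reads may be shared between them. Fgl2, a secreted suppressor, was at 66.4 and 49.1 CPM against 5.10 and 16.7 CPM. Ebi3, a subunit of IL-35, was at 14.6 and 12.5 CPM against 1.84 and 2.95 CPM. Tgfb1, the main TGF-beta ligand of Treg cells, was at 606 and 650 CPM against 401 and 524 CPM, and did not pass (log2 fold -0.45 ± 0.26, edgeR adjusted p = 0.24), though it did with the transcript length trend removed (edgeR adjusted p = 0.034).

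Inhibitory receptors were mostly lower in iTreg cells. Of 19 coinhibitory receptors and ligands tested, 12 were lower, 3 were higher and 4 did not pass (median log2 fold -0.93). Tigit was at 189 and 180 CPM in stimulated nTreg cells and at 23.7 and 21.0 CPM in iTreg cells (log2 fold -3.05 ± 0.27, edgeR adjusted p = 1.3e-27). Lag3 was at 60.8 and 110 CPM against 17.6 and 20.9 CPM. Ctla4, which strips costimulatory ligands from antigen-presenting cells, was at 505 and 493 CPM against 253 and 187 CPM (log2 fold -1.20 ± 0.26, edgeR adjusted p = 6.5e-05). It was the smallest difference of these 3, and the groups did not overlap. Lair1, an inhibitory collagen receptor, was higher, with 2.15 and 1.46 CPM against 7.35 and 9.96 CPM. Pdcd1, which encodes PD-1, was lower in the 4-library test (edgeR adjusted p = 0.026), and its call was lost in the model of all 6 libraries with none left out, and with DESeq2.

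Costimulatory receptors of the TNF receptor family split. Of 17 tested, 5 were lower, 3 were higher and 9 did not pass, with a median log2 fold of 0.0012. The lower ones were Tnfrsf8, Tnfrsf9, Tnfrsf1b, Tnfrsf18 and Tnfrsf4. Tnfrsf9, the activation receptor 4-1BB, was at 642 and 580 CPM in stimulated nTreg cells against 181 and 90.5 CPM in iTreg cells (log2 fold -2.25 ± 0.27). Tnfrsf18, or GITR, was at 354 and 314 CPM against 118 and 123 CPM (log2 fold -1.47 ± 0.26). Tnfrsf26, a decoy receptor, was higher at 68.5 and 84.0 CPM against 22.5 and 15.8 CPM in stimulated nTreg cells. The other higher members, Fas and Cd27, lost their calls with DESeq2 and without the knockout stimulated library. That of Cd27 was already lost in the model of all 6 libraries. Icos, a costimulatory receptor of the CD28 family that effector Treg cells carry, was at 532 and 455 CPM against 134 and 150 CPM (log2 fold -1.79 ± 0.26). In the wider list of Treg surface and signature genes, 16 of 26 were lower, 3 were higher and 7 did not pass (median log2 fold -1.11).

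Chemokine receptors were lower more often than higher. Of 18 tested, 9 were lower, 3 were higher and 6 did not pass, with a median log2 fold of -1.18. Ccr4, a skin and tissue homing receptor, was at 194 and 161 CPM in stimulated nTreg cells and at 30.1 and 26.6 CPM in iTreg cells (log2 fold -2.64 ± 0.26). Ccr2, a receptor of inflamed tissue, was at 35.0 and 46.3 CPM against 0.82 and 0.51 CPM. Ccr7, which guides cells into lymph nodes, was at 155 and 165 CPM against 407 and 507 CPM (log2 fold 1.51 ± 0.26, edgeR adjusted p = 2e-07). Cx3cr1, the fractalkine receptor, was also higher, with 3.03 and 4.68 CPM against 18.8 and 37.6 CPM. For these 4 receptors the iTreg and stimulated nTreg libraries did not overlap. The third higher member, Ccr9, lost its call whichever of the 4 libraries was left out.

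Naive and quiescence genes were higher more often than lower. Of 21 tested, 13 were higher, 1 was lower and 7 did not pass (median log2 fold 0.83). Igfbp4, which binds insulin-like growth factors and is abundant in naive T cells, was at 140 and 90.8 CPM in stimulated nTreg cells and at 1115 and 1528 CPM in iTreg cells. Its log2 fold was 3.53 ± 0.29 (edgeR adjusted p = 9.8e-31), and both iTreg libraries lay above every nTreg library, the resting ones at 62.0 and 17.7 CPM included. The list as a whole differed from Igfbp4 in this. Its summed level was 2632 and 2336 CPM in stimulated nTreg cells, 5449 and 5475 CPM in iTreg cells, and highest in resting nTreg cells at 9036 and 7784 CPM. Klf2, a factor for recirculation, was at 92.7 and 57.6 CPM against 279 and 402 CPM (log2 fold 2.19 ± 0.27). Pik3ip1, an inhibitor of PI3 kinase, and Tsc22d3, the glucocorticoid-induced leucine zipper, were also higher, with log2 folds of 2.23 and 1.63. Tcf7 and Lef1, factors of naive T cells, had smaller folds of 0.89 and 0.74, and their calls were lost without the wild-type or without the knockout stimulated library, that of Lef1 also without the knockout iTreg library. Il7r, the IL-7 receptor chain of naive and memory cells, went the other way, with 66.7 and 51.8 CPM against 42.8 and 19.5 CPM. The number of higher members was 7 without the wild-type stimulated library and 8 without the knockout stimulated library, and Il7r lost its call without the latter.

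Several feedback genes of TGF-beta signalling were higher. Of 13 TGF-beta induced genes tested, 7 were higher and 6 did not pass (median log2 fold 1.02). Smad7, the inhibitory Smad that TGF-beta signalling switches on, was at 37.0 and 33.7 CPM in stimulated nTreg cells and at 72.7 and 98.7 CPM in iTreg cells (log2 fold 1.26 ± 0.26, edgeR adjusted p = 2.1e-05). Smurf2, a ubiquitin ligase that works with Smad7, was at 34.0 and 34.8 CPM against 70.1 and 79.7 CPM. Ldlrad4, which restrains Smad phosphorylation, was at 23.5 and 25.6 CPM against 50.7 and 54.1 CPM. The groups did not overlap in these 3 genes. Pmepa1, another inhibitor of the pathway, was at 87.5 and 110 CPM against 163 and 242 CPM, and its call was lost without the wild-type stimulated or the knockout iTreg library. Itgae, the integrin chain CD103 that TGF-beta induces, did not pass, with 133 and 140 CPM against 62.6 and 138 CPM, though it did without the knockout iTreg library. The number of higher members was 4 without the knockout stimulated or without the knockout iTreg library, 11 without the wild-type iTreg library, and 10 with the transcript length trend removed.

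Among the components of the TGF-beta pathway, 5 of 17 were higher and 3 were lower (median log2 fold 0.13), and 3 were higher without either stimulated library or without the knockout iTreg library. Itgb8, the integrin chain with which Treg cells activate latent TGF-beta, had 29.2 and 25.6 CPM in stimulated nTreg cells against 1 count in wild-type and none in knockout iTreg cells. In knockout it was at least 83.9-fold lower. Eng and Acvr2a, coreceptor and activin receptor, were higher in iTreg cells, with log2 folds of 2.42 ± 0.44 and 1.34 ± 0.28. Tgfbr1 and Smad3, a receptor chain and a signal transducer, did not pass (edgeR adjusted p = 0.45 and 0.055). Both passed without the wild-type iTreg library, and Smad3 also without the wild-type stimulated library and with limma on log2(FPKM + 0.1).

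**Figure D3:**
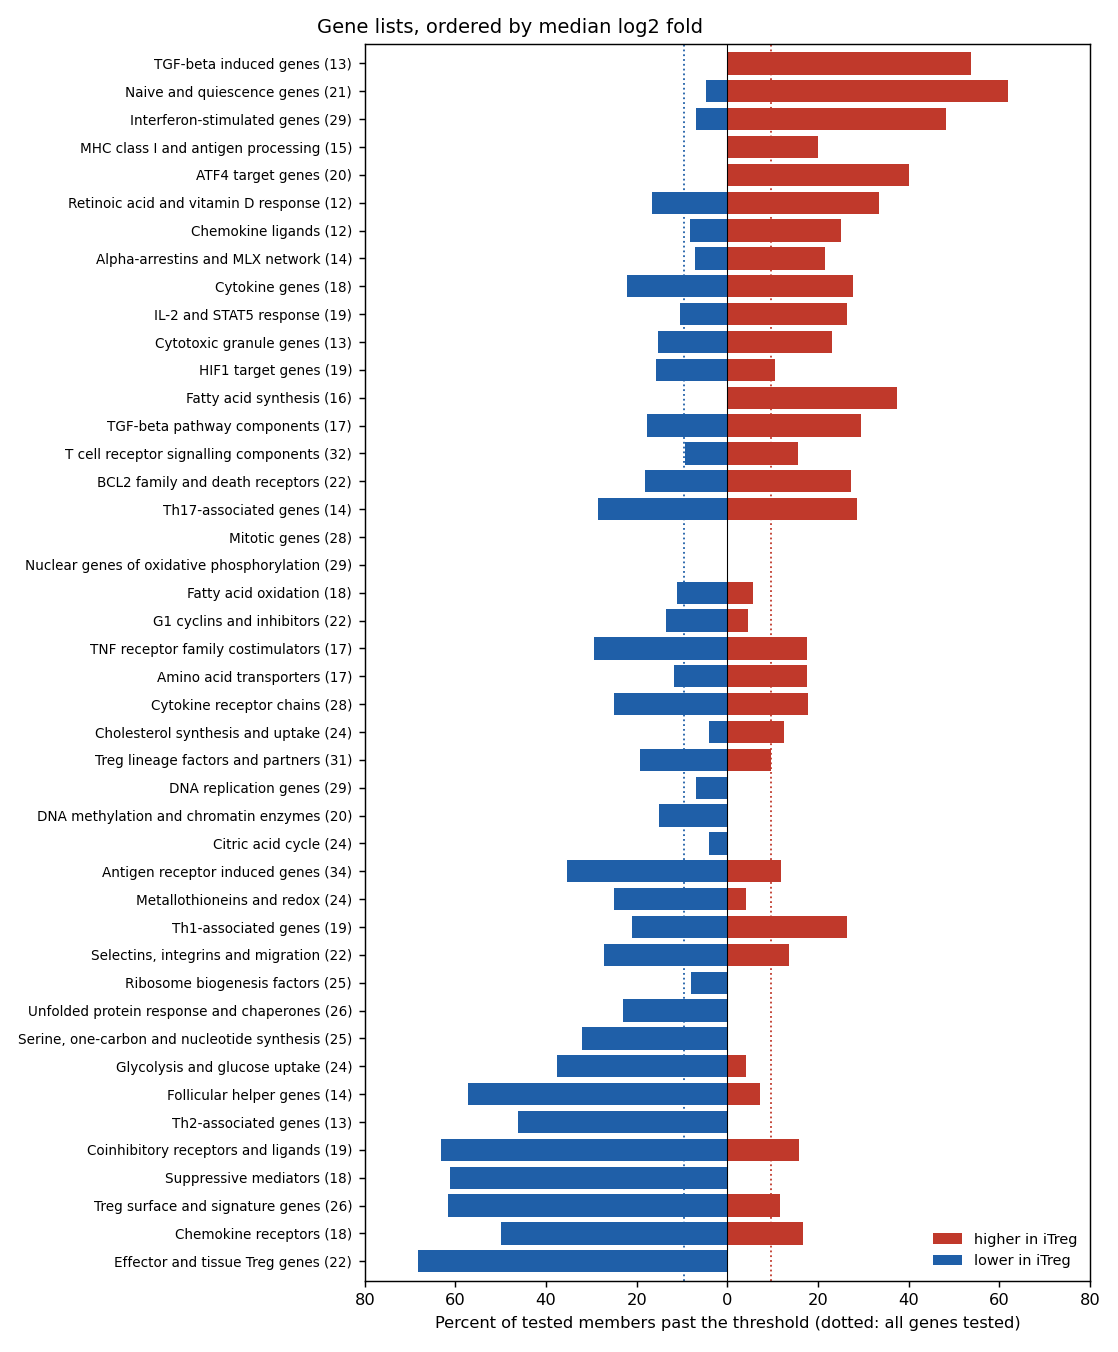
Percent of the tested members of each of 44 gene lists (number tested in brackets) that were higher (right, red) or lower (left, blue) in iTreg cells, ordered by the median log2 fold; dotted lines mark the 9.6% and 9.58% of all genes tested. Effector and tissue Treg genes are at the bottom with 15 of 22 lower, and TGF-beta induced genes are at the top with 7 of 13 higher. Some genes stand in several lists.

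Th1- and Th17-associated genes had calls on both sides, while Th2-associated genes that passed were lower. Of 14 Th17-associated genes, 4 were higher and 4 were lower. Ccl20, a chemokine of Th17 cells, was at 2.64 and 5.08 CPM in stimulated nTreg cells and at 59.1 and 37.2 CPM in iTreg cells. Il17a had 0 to 4 counts in the 4 libraries and was too low to test. Of 19 Th1-associated genes, 5 were higher and 4 were lower, and the higher ones were 1 to 3 without either stimulated library or without the knockout iTreg library. Il12rb2, the inducible IL-12 receptor chain, was at 19.8 and 25.4 CPM against 114 and 80.7 CPM (log2 fold 2.09 ± 0.27), while Tbx21, the Th1 factor T-bet, and Ifng did not pass (edgeR adjusted p = 0.075 and 0.69). Tbx21 passed with limma and without the wild-type stimulated or the wild-type iTreg library, and its adjusted p (edgeR, DESeq2 or limma) ran from 0.0046 to 0.73 over the alternatives. Of 13 Th2-associated genes, 6 were lower and 7 did not pass (median log2 fold -0.84), and Gata3, Il1rl1, Ccr4 and Il10 among them also stand in other lists.

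Of 14 follicular helper genes, 8 were lower and 1 was higher. The higher one was Bcl6, the follicular factor that opposes Prdm1, with 5.47 and 4.39 CPM in stimulated nTreg cells and 19.1 and 33.4 CPM in iTreg cells (log2 fold 2.36 ± 0.31, edgeR adjusted p = 1.1e-12). Cxcr5, the receptor that brings cells into follicles, was lower, with 13.0 and 18.3 CPM against 2.45 and 7.92 CPM.

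Some secreted and cytotoxic products were higher in iTreg cells, though Gzmb was lower (log2 fold -2.57). Of 13 cytotoxic granule genes tested, 3 were higher and 2 were lower. The summed level of that list was 1622 and 1675 CPM in stimulated nTreg cells against 1044 and 1636 CPM in iTreg cells. Xcl1, a chemokine for cross-presenting dendritic cells, was at 8.21 and 18.4 CPM in stimulated nTreg cells and at 96.8 and 184 CPM in iTreg cells (log2 fold 3.43 ± 0.28, edgeR adjusted p = 5.8e-32). Ctsw, a cathepsin of cytotoxic lymphocytes, was at 28.7 and 41.3 CPM against 226 and 556 CPM (log2 fold 3.37 ± 0.28). Prf1, which encodes perforin, did not pass, with 6.55 and 12.4 CPM against 7.14 and 9.04 CPM. Of the lists for CD8 T cells and NK cells, 4 of 4 and 3 of 4 tested markers were higher in iTreg cells. Cd8a was at 21.6 and 28.3 CPM against 56.3 and 108 CPM, and Klrd1, a chain of the CD94 receptor, at 0.49 and 1.17 CPM against 11.9 and 22.3 CPM. The summed level of the CD8 list was 58.7 and 70.6 CPM in stimulated nTreg cells and 129 and 214 CPM in iTreg cells, and that of the NK list 6.84 and 6.25 CPM against 24.0 and 38.7 CPM. Ncr1, a defining NK receptor, had at most 1 count in each of the 4 libraries. The calls of Cd8a, Cd8b1 and Klrc1 were lost without the knockout iTreg library, and the part of CD8 T cells in the higher cytotoxic genes was not tested.

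Of 13 B cell markers, 5 were lower and 1 was higher, and their summed level was 204 and 255 CPM in stimulated nTreg cells against 242 and 373 CPM in iTreg cells. The number lower was 1 in the model of all 6 libraries and 1 without the wild-type iTreg library, and all 5 calls were lost without the wild-type stimulated library. Of 15 myeloid markers, 3 were tested and 2 were lower, and the summed level was 30.2 and 20.5 CPM in stimulated nTreg cells against 5.61 and 7.52 CPM in iTreg cells. Csf1r, S100a8 and Cpa3, markers of macrophages, neutrophils and mast cells, were at or under 0.49 CPM in the 4 libraries. The part of these cells in the other results was not tested.

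Antigen receptor induced genes were lower more often than higher, 12 against 4 of 34, with a median log2 fold of -0.24. Jun, an AP-1 subunit, stood on the other side, with 32.6 and 55.5 CPM in stimulated nTreg cells and 264 and 418 CPM in iTreg cells (log2 fold 2.96 ± 0.27, edgeR adjusted p = 1.4e-25). Fosl2, another AP-1 subunit, was lower, with 184 and 157 CPM against 80.5 and 21.8 CPM. Nr4a1, an early response gene, was at 387 and 364 CPM against 323 and 128 CPM, and Egr2, which restrains T cell activation, at 128 and 141 CPM against 79.1 and 40.0 CPM. For both, the knockout iTreg library was the lowest of the 4. The call of Egr2 was lost without it, and that of Nr4a1 was already lost in the model of all 6 libraries and with DESeq2. The number of lower members was 9 in the model of all 6 libraries and 6 without the knockout iTreg or the knockout stimulated library.

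Interferon-stimulated genes were higher in part. Of 29 tested, 14 were higher and 2 were lower (median log2 fold 0.72). Ifitm3, a membrane protein that blocks virus entry, was at 7.53 and 5.56 CPM in stimulated nTreg cells and at 48.0 and 125 CPM in iTreg cells (log2 fold 3.57 ± 0.31, edgeR adjusted p = 2.2e-28). Gbp2, a guanylate-binding protein induced mainly by interferon gamma, was at 600 and 566 CPM against 1754 and 1454 CPM (log2 fold 1.45 ± 0.27). Isg15 and Irf7, classical type I interferon targets, did not pass, with log2 folds of 0.23 and 0.29. Oas1a, which makes the activator of RNase L, was lower, at 5.96 and 6.73 CPM against 1.12 and 1.02 CPM. The number of higher members was 8 in the model of all 6 libraries, 4 without the wild-type stimulated library and 3 without the knockout iTreg library.

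Mitotic genes gave no calls. With edgeR none of 28 passed, 4 had an unadjusted p under 0.05, and DESeq2 and limma called none either, while 3 were higher and 1 was lower with the transcript length trend removed, and 3 were lower without the wild-type iTreg library. Mki67, the proliferation marker, was at 1634 and 1634 CPM in stimulated nTreg cells and at 2145 and 1147 CPM in iTreg cells, so the groups overlapped (log2 fold -0.06 ± 0.27, edgeR adjusted p = 0.92). The resting nTreg libraries had 57.5 and 67.0 CPM. Of 29 DNA replication genes, 2 were lower. Of 29 nuclear genes of oxidative phosphorylation, edgeR, DESeq2 and limma called none, and none had an unadjusted p under 0.05 in edgeR. Their summed level was 4432 and 4807 CPM in stimulated nTreg cells against 3727 and 5345 CPM in iTreg cells. It was thus lower in wild-type and higher in knockout iTreg cells, and this difference between the genotypes was not tested. Cdkn2a and Cdkn2b, neighbouring cell cycle inhibitors on chromosome 4, were lower in iTreg cells, with log2 folds of -4.66 ± 0.66 and -3.81 ± 0.61 from levels of at most 4.59 CPM. Without the wild-type iTreg library 4 oxidative phosphorylation genes were higher, and without the knockout iTreg library 2 were lower.

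Some genes of glucose metabolism were lower in iTreg cells. Of 24 genes for glycolysis and glucose uptake, 9 were lower in iTreg cells and 1, Txnip, was higher (median log2 fold -0.50). Eno3, an enolase, was at 60.3 and 89.1 CPM in stimulated nTreg cells and at 15.5 and 28.5 CPM in iTreg cells (log2 fold -1.80 ± 0.27, edgeR adjusted p = 2e-09). Hk2, the inducible hexokinase, was at 67.4 and 98.0 CPM against 31.5 and 28.4 CPM, and its call was lost without the knockout stimulated library. Slc2a1, the main glucose transporter of T cells, did not pass, with 110 and 124 CPM against 79.6 and 95.9 CPM. Of 25 genes for serine, one-carbon and nucleotide synthesis, 8 were lower and 17 did not pass (median log2 fold -0.41). Without the knockout stimulated library 4 of the glycolysis genes were lower (13 with the transcript length trend removed), and the calls of all 8 one-carbon genes were lost.

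Some genes for making fatty acids were higher in iTreg cells. Of 16 tested, 6 were higher and 10 did not pass (median log2 fold 0.13). Scd1, the desaturase that makes monounsaturated fatty acids, was at 3.81 and 17.7 CPM in stimulated nTreg cells and at 52.5 and 60.9 CPM in iTreg cells (log2 fold 2.68 ± 0.30, edgeR adjusted p = 5.6e-17). Fads2, a desaturase of polyunsaturated fatty acids, was at 1.76 and 3.32 CPM against 15.4 and 19.1 CPM. Fasn, fatty acid synthase itself, did not pass, with 792 and 964 CPM against 851 and 711 CPM. Abcg1, a sterol exporter that liver X receptors induce, was at 33.5 and 44.1 CPM against 234 and 215 CPM (log2 fold 2.54 ± 0.26, edgeR adjusted p = 3.4e-20). Without the wild-type stimulated library 3 of the 6 fatty acid genes were higher.

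ATF4 target genes, which respond to amino acid shortage and stress, were higher in part. Of 20 tested, 8 were higher and 12 did not pass (median log2 fold 0.36), and the median was 0.86 in wild type and 0.02 in knockout. Trib3, a pseudokinase, was at 4.69 and 5.47 CPM in stimulated nTreg cells and at 38.9 and 15.5 CPM in iTreg cells (log2 fold 2.29 ± 0.31, edgeR adjusted p = 7.7e-12). Atf5 was at 13.3 and 20.8 CPM against 102 and 32.9 CPM, and its call was lost with DESeq2 and without the wild-type iTreg library. Nupr1, a stress-induced chromatin protein, was at 0.68 and 0.39 CPM against 19.2 and 24.0 CPM, and here the knockout was as high as the wild type. The difference between the genotypes was not tested. The number of higher members was 3 without the wild-type stimulated or without the wild-type iTreg library.

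Some redox genes were lower. Of 24 genes for metallothioneins and redox, 6 were lower and 1, Mt2, was called higher. The log2 fold of Mt2 was -4.3 in wild type and 3.3 in knockout, and its call was lost or reversed in several alternatives. The number of lower members was 12 without the knockout iTreg library and 3 without the wild-type stimulated library. Srxn1, which repairs oxidised peroxiredoxins, was at 24.4 and 17.9 CPM in stimulated nTreg cells and at 2.75 and 1.63 CPM in iTreg cells (log2 fold -3.28 ± 0.35, edgeR adjusted p = 5.9e-19). Txnrd1, thioredoxin reductase, was at 206 and 214 CPM against 80.6 and 103 CPM (log2 fold -1.21 ± 0.25). Of 19 HIF1 target genes, 2 were higher and 3 were lower. Vegfa, the vascular growth factor, was at 4.01 and 4.00 CPM against 86.8 and 33.1 CPM (log2 fold 3.76 ± 0.32, edgeR adjusted p = 4.4e-29). Hif1a itself was lower, with 715 and 708 CPM against 305 and 167 CPM.

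**Figure D4:**
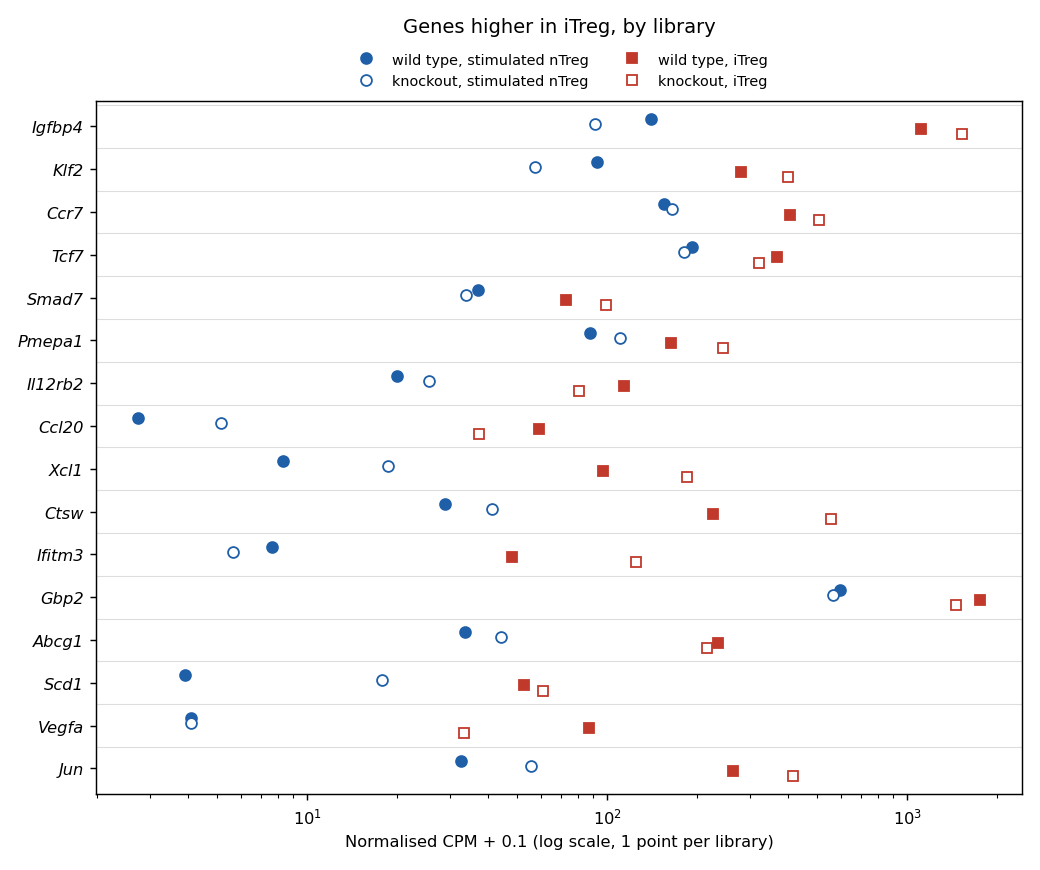
Normalised CPM plus 0.1 (log axis) of 16 genes that were higher in iTreg cells, in each of the 4 libraries: circles are stimulated nTreg, squares iTreg, filled wild type and open knockout. For every gene drawn both iTreg libraries lie to the right of both stimulated nTreg libraries, from Tcf7 at 191 and 180 against 369 and 320 CPM to Igfbp4 at 140 and 90.8 against 1115 and 1528 CPM.

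MondoA binds DNA with its partner Mlx and switches on the alpha-arrestins Txnip and Arrdc4, which limit glucose uptake, through carbohydrate response elements made of E-box-like motifs. Both genes were higher in iTreg cells than in stimulated nTreg cells in each genotype, so the bases before their starts are shown, from RefSeq on GRCm38.p6, with matches to CACGNG on either strand in capitals. The Txnip window is chr3:96557707-96557956 on the plus strand, and the Arrdc4 window is chr7:68749239-68749488 on the minus strand.
Txnip: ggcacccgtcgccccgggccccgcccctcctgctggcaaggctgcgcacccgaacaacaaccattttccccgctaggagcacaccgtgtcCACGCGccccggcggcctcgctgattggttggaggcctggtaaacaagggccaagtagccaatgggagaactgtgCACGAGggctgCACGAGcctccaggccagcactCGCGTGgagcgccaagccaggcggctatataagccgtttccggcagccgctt
Arrdc4: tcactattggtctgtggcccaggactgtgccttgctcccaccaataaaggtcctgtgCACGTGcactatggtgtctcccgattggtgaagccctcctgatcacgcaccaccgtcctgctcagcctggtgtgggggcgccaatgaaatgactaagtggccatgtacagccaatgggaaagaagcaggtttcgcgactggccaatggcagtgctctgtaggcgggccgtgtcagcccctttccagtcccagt

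Each window holds the 250 bases before the start. Txnip had 4 matches and Arrdc4 had 1. Of 32817 windows of this length in the RefSeq table, 23.5% held at least 1 match and 0.244% at least 4. A pair of CACGNG matches on 1 strand with 5 bases between them begins 85 bases before the Txnip start, and 15 of all windows (0.0457%) held such a pair on either strand. A match describes these letters and not a bound site.

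Txnip was at 137 and 23.2 CPM in stimulated nTreg cells and at 303 and 72.1 CPM in iTreg cells. Within each genotype the iTreg library was higher, and across genotypes the libraries overlapped. The log2 fold was 1.14 in wild type, 1.63 in knockout and 1.38 ± 0.25 in the fit (edgeR adjusted p = 1.1e-06). Resting nTreg cells had more than either, at 1476 and 399 CPM. Arrdc4 was at 10.1 and 0.49 CPM against 39.6 and 2.54 CPM, with log2 folds of 1.95 and 1.99 in wild type and knockout and 2.06 ± 0.36 in the fit (edgeR adjusted p = 1.9e-07). Its knockout libraries held 5 and 25 counts. Both calls were lost without genotype as a covariate. The call of Txnip was also lost without the knockout stimulated library and that of Arrdc4 without the wild-type iTreg library. Of 14 alpha-arrestins and genes of the Mlx network tested, 3 were higher and 1, Arrdc3, was lower. The call of Arrdc3 was lost without the covariate, with DESeq2 and without the knockout stimulated or the knockout iTreg library.

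The genes with the largest differences reached past the Treg lists. H19, an imprinted long noncoding RNA, had 3 and 7 counts in stimulated nTreg cells and was at 67.7 and 59.8 CPM in iTreg cells (log2 fold 6.99 ± 0.41, edgeR adjusted p = 4.7e-60). Pdlim4, a cytoskeletal adaptor, was at 0.10 CPM in both stimulated nTreg libraries against 34.1 and 35.0 CPM (log2 fold 8.29 ± 0.51, edgeR adjusted p = 4e-55). Myrip, a myosin adaptor on secretory granules, had no counts in either stimulated nTreg library, and 8.57 and 27.0 CPM in iTreg cells were at least 29.2-fold and at least 92.3-fold higher. These 3 genes were picked for large folds in these same libraries, so the lack of overlap between their groups follows from the choice. The call of Myrip was lost with DESeq2.

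Adhesion and membrane genes were among the others that stood highest. Cdh1, or E-cadherin, had 3 counts and none in stimulated nTreg cells against 17.0 and 28.4 CPM. Atp1b1, a subunit of the sodium pump, was at 15.1 and 6.93 CPM against 361 and 421 CPM (log2 fold 5.22 ± 0.31). Cd24a, a surface glycoprotein of immature lymphocytes, was at 4.40 and 4.88 CPM against 66.4 and 168 CPM. On the lower side, Penk, the enkephalin precursor that tissue Treg cells make, was at 46.8 and 35.6 CPM in stimulated nTreg cells and at 1.22 and 0.71 CPM in iTreg cells (log2 fold -5.41 ± 0.37, edgeR adjusted p = 1.6e-44). Adam8, a membrane metalloprotease, was at 64.7 and 69.0 CPM against 2.35 and 2.84 CPM. The rule that picked these genes required a 2-fold difference the same way in both genotypes.

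Of the 10142 genes with enough counts in both genotypes, 8 were at least 2-fold apart in opposite directions in wild type and knockout. Mt1, a metallothionein that binds zinc and is induced by it, was at 7.62 and 12.4 CPM in stimulated nTreg cells, at 0.41 CPM in wild-type iTreg cells and at 75.2 CPM in knockout iTreg cells. The log2 fold was -3.69 in wild type, with a 95% interval of -6.14 to -2.81 for counting error, and 2.58 in knockout, with an interval of 2.33 to 2.88. Mt2, its neighbour, had 38 and 48 counts in stimulated nTreg cells, none in wild-type iTreg cells and 473 in knockout iTreg cells, and its call in the fit of both genotypes (log2 fold 1.15 ± 0.40, edgeR adjusted p = 0.026) was lost or reversed in several alternatives. Asns, asparagine synthetase and an ATF4 target, was at 49.95 and 42.6 CPM in stimulated nTreg cells, at 103 CPM in wild-type and at 18.2 CPM in knockout iTreg cells.

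**Figure D5:**
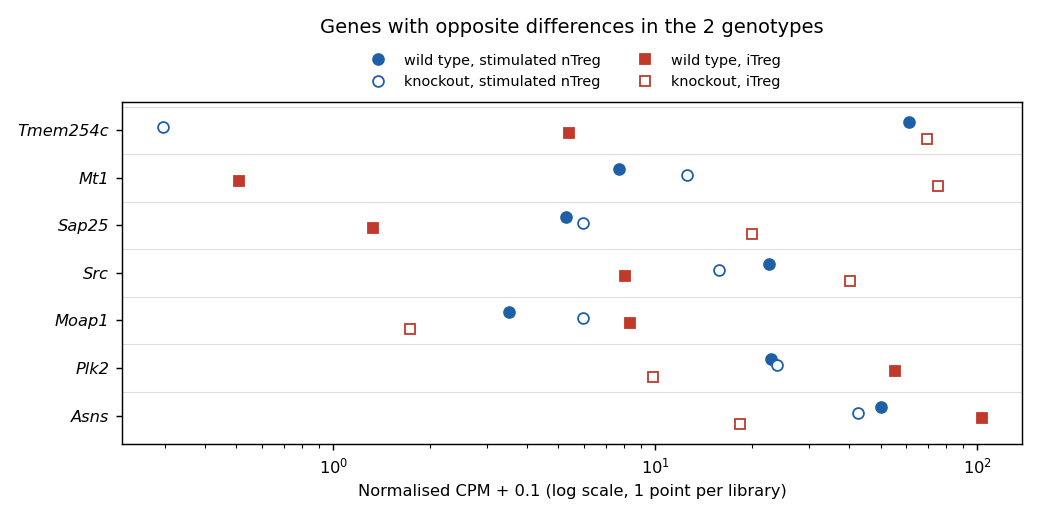
Normalised CPM plus 0.1 (log axis) in the 4 libraries of 7 genes that were at least 2-fold apart in opposite directions in wild type and knockout. For Mt1 the wild-type iTreg library is the lowest of the 4 at 0.41 CPM and the knockout iTreg library the highest at 75.2 CPM, and for Asns this order is turned around.

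Src, a tyrosine kinase, was at 22.4 and 15.6 CPM in stimulated nTreg cells, whereas wild-type iTreg cells had 7.96 CPM and knockout iTreg cells 40.2 CPM. Plk2, a stress-responsive polo-like kinase, was at 22.8 and 23.7 CPM, and at 55.4 and 9.75 CPM in iTreg cells. For Src the knockout iTreg library was the highest of the 4, and for Plk2 the wild-type iTreg library was. Tmem254c has near-identical copies, and its 61.1 and 0.20 CPM in stimulated nTreg cells and 5.31 and 69.7 CPM in iTreg cells stood beside 5.57 and 68.2 CPM against 51.9 and 42.3 CPM of Tmem254b. In 3 of the 4 libraries 1 copy was high and the other low, and in knockout iTreg cells both were high. Values for these copies are therefore uncertain. With 1 library per genotype and state, the difference between the genotypes was not tested for any of these genes.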

How the data were processed

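RNA-seq libraries of mouse Treg cells were deposited as 1 table per library, with an expected count and an FPKM value per gene made by the authors. Bowtie2, HISAT and the build mm9 are listed, per the submitters' processing notes; the program that estimated the counts and the use of strand are not given in the sources used here. Of the deposited expected counts 76.0% were whole within 0.005, and all were rounded. Of 17759 identifiers 17711 matched a symbol. Genes sharing reads with near-identical copies are uncertain.

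The 4 libraries, grouped by their labels, were fitted with edgeR 4.0.16 (R 4.3.3) as state plus genotype, with TMM scaling, filterByExpr (minimum count 10, total 15) and the quasi-likelihood test at a Benjamini-Hochberg adjusted p of 0.05. The fit had 1 residual degree of freedom, so the error rests on the spread shared across 12232 genes (common dispersion 0.0342). A ± after a log2 fold is its standard error, worked out from the fold and the F statistic of the fit. It rests on the spread shared across genes and does not show how far the genotypes differed for that gene. Folds within a genotype used a prior count of 2, with 2-fold and at least 50 counts as limits. Intervals (95%, Clopper-Pearson) and the floor of 3 counts per library cover counting error only. Counts were also simulated over 12232 genes, with the common dispersion for every gene and no genotype effect or length trend. Of changes set in genes with over 50 counts on average, 43% of 2-fold and 98% of 4-fold ones were recovered, with 3 false calls. The real data differ in these points, so the simulation does not give the number of false calls among the real ones.

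Genes were named by a rule: Foxp3, Mlxip and Txnip, the 15 largest folds in each direction, core members and up to 6 others of each of 54 lists, and up to 10 genes with opposite folds. Tmem254b was added after its values were seen. The members and lists were chosen with earlier results of these data known. Alternatives were other scaling, filters and models, DESeq2 1.42.0, limma 3.58.1 on log2 of the authors' FPKM, a lowess correction for transcript length, and each library left out. The resting nTreg libraries gave levels and did not enter the main fit. They did enter the model of all 6 libraries and the models with 1 library left out. Promoter sequences are from RefSeq on GRCm38.p6, and mm9 coordinates were not used. Results for some genes are not reported here.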

Additional observations from a re-analysis of the deposited data

Results flagged for a closer look

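A group of 7 genes drew attention because iTreg and stimulated nTreg cells differed at least 2-fold in opposite directions in the genotypes. The log2 fold in wild type minus that in knockout was -10.95 for Tmem254c, -6.27 for Mt1, -3.65 for Sap25, -2.82 for Src, 2.96 for Moap1, 2.54 for Plk2 and 2.26 for Asns. With 1 library per genotype and state the difference was not tested. Sap25, a subunit of the SIN3 corepressor complex, was at 5.18 and 5.86 CPM in stimulated nTreg cells, at 1.22 CPM in wild-type iTreg cells and at 19.9 CPM in knockout iTreg cells. Moap1, a BAX-binding protein, was at 3.42 and 5.86 CPM, and at 8.26 and 1.63 CPM in iTreg cells. Tmem254c has near-identical copies between which reads may be split. No group had 4 or more libraries, so no library was tested as standing apart from its group.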

How the results depend on the processing

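With 1 library per genotype and state the calls rest on a spread shared across genes, and the counts depended on the model. Against 2346 genes past the threshold (1174 higher, 1172 lower), 922 passed without genotype as a covariate (471 higher, 451 lower) and 1107 with DESeq2 (579 higher, 528 lower), and the cause was not tested. Leaving out 1 library at a time, in a model of all 6 libraries in which the lone sample is assumed to vary like the others, gave 1301 (without the knockout stimulated library) to 3156 genes (without the wild-type iTreg library), with 550 to 1386 higher and 751 to 1770 lower. The other alternatives gave 1836 to 2772. Of the list members 285 passed, 142 without the covariate and 196 to 322 with 1 library left out. The 740 genes 2-fold apart in both genotypes were 399 with at least 200 counts required, a limit that leaves fewer genes, and 751 after the transcript length trend was removed, 693 of them shared.

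Of 94 named genes past the threshold, 68 passed in every alternative run and 26 were lost in at least 1, 20 of them without the covariate. Runx3, Fgl2, Fosl2, Scd1 and Cxcr5 were among these 20 and were lost in no other alternative. Of 26 named genes that did not pass, 13 passed in at least 1 alternative. A change of sign with a call on either side was seen for genes with opposite folds in the genotypes and for Mt2, while uncalled folds near 0, such as that of Mki67, also changed sign. Mt1 was at -0.76 with limma on log2(FPKM + 0.1), and Mt2 at -1.45 there and at -2.25 with DESeq2. With 1 library left out the log2 fold ran from -4.15 to 2.50 for Mt1, from -8.38 to 3.38 for Mt2, from -2.04 to 1.65 for Sap25, from -1.35 to 1.10 for Src, from -1.17 to 0.91 for Asns, from -1.17 to 1.08 for Plk2 and from -3.67 to 8.43 for Tmem254c. No paired analysis was possible because each group had 1 library and the labels give no replicate numbers that pair them.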

Other observations

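Genes for the balance of cell death stood on both sides. Over all genes tested 9.6% were higher and 9.58% were lower. Of 22 BCL2 family and death receptor genes, 6 were higher in iTreg cells and 4 were lower (median log2 fold 0.12). Bcl2l11, the proapoptotic protein BIM, was at 47.3 and 35.1 CPM in stimulated nTreg cells and at 157 and 90.7 CPM in iTreg cells (log2 fold 1.55 ± 0.25, edgeR adjusted p = 3.4e-08). Bbc3, or PUMA, which likewise promotes death, was at 22.7 and 19.5 CPM against 77.9 and 51.4 CPM. Of 32 T cell receptor signalling components, 5 were higher and 3 were lower, and Grap2, an adaptor that links LAT to SLP-76, was at 202 and 215 CPM against 596 and 579 CPM. Of 19 genes of the IL-2 and STAT5 response, 5 were higher and 2 were lower. Without the knockout stimulated library 3 genes of each of these 3 lists were higher, and without the wild-type stimulated library 2 of the signalling and 2 of the STAT5 genes. The lower signalling genes were 7 without the wild-type iTreg library and 6 with the transcript length trend removed, and the higher STAT5 genes 2 without the knockout iTreg library.

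Lists of secreted and surface molecules had calls on both sides. Among cytokine genes 5 of 18 were higher and 4 were lower, among cytokine receptor chains 5 of 28 and 7, among chemokine ligands 3 of 12 and 1, among selectins and integrins 3 of 22 and 6, among retinoic acid and vitamin D response genes 4 of 12 and 2, and among cytotoxic granule genes 3 of 13 and 2. For MHC class I and antigen processing, 3 of 15 were higher and 12 did not pass, and 9 were higher without the wild-type iTreg library and 10 with the length trend removed. The higher retinoic acid and vitamin D response genes were 1 without the wild-type stimulated library and 2 without the knockout iTreg library, and all 4 calls were lost without the knockout stimulated library. Higher receptor chains were 8 with the length trend removed. The higher cytokine genes were 2 and the higher receptor chains 2 without the wild-type stimulated library, and 3 and 1 without the knockout stimulated library. Without the knockout iTreg library 3 cytokine genes were higher, and without the wild-type iTreg library 5 cytotoxic granule genes.

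Lists of biosynthesis and chromatin were called to different extents. Of 26 genes of the unfolded protein response 6 were lower, of 25 ribosome biogenesis factors 2, of 20 DNA methylation and chromatin enzymes 3, and of 24 citric acid cycle genes 1, while the other members did not pass. Among cholesterol genes 3 of 24 were higher and 1 was lower, among fatty acid oxidation genes 1 of 18 and 2, among amino acid transporters 3 of 17 and 2, and among G1 cyclins and inhibitors 1 of 22 and 3. The lower genes of the unfolded protein response were 3 without the wild-type stimulated library, 10 without the knockout iTreg library and 10 with the length trend removed, which also gave 6 lower ribosome biogenesis factors and 4 higher G1 genes. Lower citric acid cycle genes were 5 without the knockout iTreg library, lower cholesterol genes 5 without the wild-type stimulated library, and lower chromatin genes and G1 genes 5 each without the wild-type iTreg library. Of the 6 CD4 T cell markers tested 1 was lower. Markers of stroma and endothelium summed to 137 and 127 CPM in stimulated nTreg cells and to 119 and 115 CPM in iTreg cells, and those of erythroid cells and platelets to at most 4.79 CPM. Neutrophil markers summed to at most 5.96 CPM, mast cell and basophil markers to at most 2.24 CPM and gamma-delta T cell markers to at most 0.39 CPM, and none of these was high enough to test.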
